A study of Mus musculus with 4 samples.

Results

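The genes of interest were 9 genes that encode structural and adhesion proteins of the myelin sheath, namely Mbp, Mobp, Mag, Mog, Cnp, Cldn11, Opalin, Mal and Ermn. They were chosen by name for their role in myelin, with earlier results of these data already known. Their shares set against all tested genes below are therefore descriptions and not independent tests. All 9 were found among the 35869 rows of the expression table. RNA was measured by RNA-seq in oligodendrocytes that had been sorted by flow cytometry from mouse cortex at postnatal day 5 as cells positive for O4 and also for GalC, which are lipids displayed by oligodendrocytes past the early precursor stage. There were 2 libraries of Zfp488 KI/KI mice, which carry a knock-in allele on both copies of Zfp488 and are labelled knockout (KO), and 2 of control mice, labelled wild type (WT). The allele's design, the promoter or driver used, the strain, and whether the cells of several mice were pooled are unknown here. The labels do not state that replicate libraries were made from different animals, and the p-values therefore reflect variation among the 4 libraries that may be of technical origin. The material is bulk RNA of a sorted population, in which fewer cells of a type and less RNA per cell cannot be told apart.

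Myelin is the oligodendrocyte plasma membrane wrapped around an axon. Mbp and Mobp are basic proteins on the cytoplasmic side that hold the membrane faces of compact myelin together. Mag and Mog are immunoglobulin-family proteins at the inner and the outer surface of the sheath, Cnp keeps cytoplasmic channels open in non-compact myelin, and Cldn11 forms the tight junction strands of central myelin. Opalin, Mal and Ermn are membrane and cytoskeletal proteins of maturing oligodendrocytes. Transcription of these genes is known to depend on the factors Sox10 and Myrf, and Zfp488 is a zinc-finger protein of the oligodendrocyte lineage that takes part in their maturation.

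In KO libraries 6 of the 9 genes (Mbp, Mobp, Mag, Mog, Cnp and Cldn11) had mean levels between 24.9% and 65.5% of the WT means. The deficit was deepest for Mog and shallowest for Cnp. Opalin was listed at 0 in both KO libraries and was measured in both WT libraries. Ermn had similar means in both genotypes, and Mal was listed at 0 everywhere. None of these differences passed the test across all genes, and for several of the genes the KO libraries differed from each other by more than the genotypes did. The values below are FPKM (sequenced fragments scaled to library depth and to transcript length), a unit that allows levels of different genes to be set side by side.

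The sequences before the start sites of 6 of these genes are shown here because Sox10 and Myrf act on genes of this group. They are those with a KO mean at or below 65.5% of the WT mean for which a window was matched. Promoter sequence from RefSeq (GRCm38.p6) was matched for 8 of the 9 genes, and the 250 bases before each annotated start were searched on both strands. The motifs were ACAAAG and ACAATG for Sox factors, CTGGNAC for Myrf (N stands for any base), and CAGCTG and CAGATG for E-boxes bound by Olig factors. Capitals mark matches to any of these on either strand, and no marked matches overlap. The windows read 5′ to 3′ in the direction of transcription and end at the base before the start site. They lie at chr9:120149492-120149741 on the plus strand for Mobp, chr7:30914923-30915172 on the minus strand for the outermost of the annotated Mag starts, chr17:37023399-37023648 on the minus strand for Mog, chr11:100574689-100574938 on the plus strand for Cnp, chr3:31149670-31149919 on the plus strand for Cldn11, and chr19:41077114-41077363 on the minus strand for Opalin.
Mobp: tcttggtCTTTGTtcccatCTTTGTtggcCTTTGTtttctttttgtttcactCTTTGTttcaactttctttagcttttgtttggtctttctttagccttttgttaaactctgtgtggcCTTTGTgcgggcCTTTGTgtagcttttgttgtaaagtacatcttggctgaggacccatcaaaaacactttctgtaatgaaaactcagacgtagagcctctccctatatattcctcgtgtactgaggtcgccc
Mag: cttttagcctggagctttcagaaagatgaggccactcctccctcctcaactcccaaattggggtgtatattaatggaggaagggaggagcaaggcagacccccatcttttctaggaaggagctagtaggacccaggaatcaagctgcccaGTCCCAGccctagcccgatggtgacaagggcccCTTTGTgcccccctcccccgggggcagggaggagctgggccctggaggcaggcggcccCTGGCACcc
Mog: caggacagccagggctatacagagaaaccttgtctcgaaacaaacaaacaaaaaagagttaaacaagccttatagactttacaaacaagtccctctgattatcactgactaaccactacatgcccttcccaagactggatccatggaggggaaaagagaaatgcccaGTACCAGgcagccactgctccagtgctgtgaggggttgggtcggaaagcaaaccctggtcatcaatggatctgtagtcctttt
Cnp: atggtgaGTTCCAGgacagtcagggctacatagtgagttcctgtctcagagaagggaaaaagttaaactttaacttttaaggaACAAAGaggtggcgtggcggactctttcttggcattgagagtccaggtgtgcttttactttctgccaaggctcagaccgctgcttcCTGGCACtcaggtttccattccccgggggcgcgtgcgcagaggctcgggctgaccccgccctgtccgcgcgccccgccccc
Cldn11: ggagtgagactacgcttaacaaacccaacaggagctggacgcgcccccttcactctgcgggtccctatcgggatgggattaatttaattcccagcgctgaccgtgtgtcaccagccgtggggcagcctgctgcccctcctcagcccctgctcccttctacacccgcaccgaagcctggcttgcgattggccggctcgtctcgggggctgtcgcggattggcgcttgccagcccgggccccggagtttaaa
Opalin: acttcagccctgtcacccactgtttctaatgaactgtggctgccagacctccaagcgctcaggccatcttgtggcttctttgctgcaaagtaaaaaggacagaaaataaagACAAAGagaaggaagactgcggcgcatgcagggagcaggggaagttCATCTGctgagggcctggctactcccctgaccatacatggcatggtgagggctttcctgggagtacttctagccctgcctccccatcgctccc
A match of letters is a description and not a binding site. The 8 genes had 10 windows, since Mag has 3 annotated starts. The windows of the Mag starts at 30914863 and 30914922 overlap and hold the same ACAAAG and CTGGNAC sites. Those sites are therefore counted more than once in the window counts below, and the gene counts are not affected. ACAAAG was found for 4 genes (Mobp, Mag, Cnp and Opalin), in 5 of the 10 windows, against 16.5% of all 32851 windows of the same length. CTGGNAC was found for 3 genes (Mag, Mog and Cnp), in 4 of the 10 windows, against 16.1% of all windows. The Mobp window held 6 copies of CTTTGT, which is ACAAAG read on the opposite strand, at 120 to 243 bases before the start. It was the single window (0.00304% of 32851) with at least 6 copies. That cutoff is the Mobp count itself, so the share is a description and not an independent measure of rarity. The Mag window held CTGGCAC 9 bases before the start, and the Mog window held GTACCAG, which reads CTGGTAC on the opposite strand, 83 bases before it. ACAATG was found for 1 gene (Ermn, against 10.7% of windows), CAGATG for 1 (Opalin, 14.4%) and CAGCTG for 0 (13.0%). No copy of these motifs lay in the windows of Cldn11 and Mal.

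Of the 10754 genes with at least 1 FPKM in at least 2 libraries, limma called 0 (0%) different between KO and WT at an adjusted p below 0.05. The smallest adjusted p was 0.859, and 608 genes had an unadjusted p under 0.05, of which 306 (2.85%) were lower and 302 (2.81%) were higher in KO. Of the 9 myelin genes 0 were called, and 8 entered the test, Mal being the one at 0. Opalin entered only through its WT values and so had to differ. At an unadjusted p under 0.05 there were 2 of the 9, Mobp and Opalin, both lower in KO. That count was 7 without KO 1 and 1, Opalin, without KO 2; it was 0 without WT 1. Each KO library was under each WT library for 5 of the 9 (Mbp, Mobp, Mag, Mog and Opalin), against 18.3% of all tested genes. With each library rescaled to the same FPKM total, this held for 4 of the 9, Mag being lost. The 18.3% is without that rescaling. None of the 9 had both KO libraries above both WT libraries, against 16.6% of tested genes. Zfp488 itself was at 4.82 and 4.11 FPKM in the libraries labelled KO, and at 6.61 and 5.29 FPKM in WT libraries, a log2 difference of -0.34 (SE 0.33, limma adjusted p = 0.95). The part of the Zfp488 transcript that the allele removes is not given, so this level does not check the genotype labels.

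**Figure D1:**
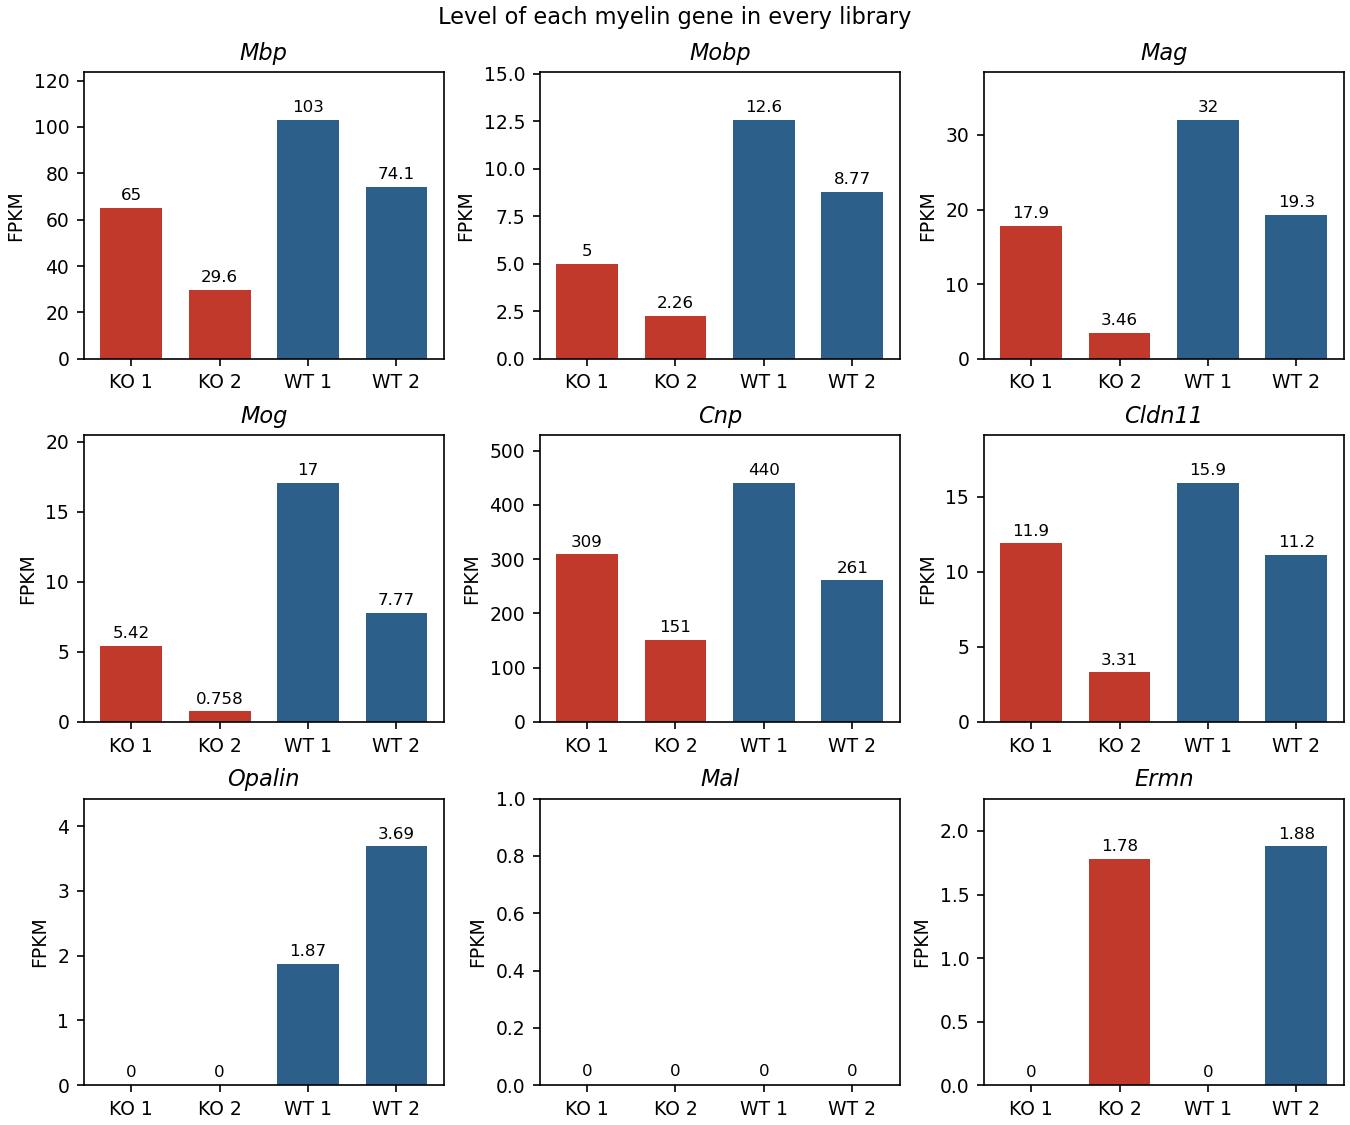
FPKM of each of the 9 myelin genes in every library, on separate linear axes that start at 0, with KO to the left of WT; each bar is 1 library, with its value above it. For Cnp and Cldn11 the higher KO library reached above the lower WT library, Opalin was at 0 in both KO libraries, and Mal was at 0 in all 4.

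Among the proteins of compact myelin, Mbp was at 65.0 and 29.6 FPKM in KO libraries, against 103.0 and 74.1 FPKM in WT libraries. The groups did not overlap, but the higher KO library was at 87.7% of the lower WT library. On the log2(FPKM + 1) scale, which understates changes of low genes, the Mbp difference was -0.97 (SE 0.42, 95% interval -2.05 to 0.10), with a limma adjusted p of 0.885. Mobp, a smaller basic protein that shares the major dense line with Mbp, was at 4.998 and 2.26 FPKM in KO libraries, against 12.6 and 8.77 FPKM in WT libraries. This was the widest separation among the genes measured in every library, since the higher KO library reached 57.0% of the lower WT library. The Mobp difference was -1.38 (SE 0.44, 95% interval -2.50 to -0.26), with an unadjusted p of 0.0249 and a limma adjusted p of 0.859.

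Mag binds gangliosides and receptors on the axon, and Mog faces the outside of the sheath and is made late in maturation. Mag was at 17.9 and 3.46 FPKM in KO libraries, against 32.0 and 19.3 FPKM in WT libraries. KO 1 stood at 92.7% of WT 2, whereas KO 2 was far below every other library. The Mag difference was -1.495 (SE 0.74, 95% interval -3.39 to 0.40, limma adjusted p = 0.914). When each library was rescaled to the same FPKM total, KO 1 reached 18.8 and WT 2 reached 18.5, and the groups overlapped. Mog was at 5.42 and 0.758 FPKM in KO libraries, against 17.0 and 7.77 FPKM in WT libraries. Both KO values lay below both WT values, and both genotypes had their lower value in the library numbered 2. The Mog difference was -1.90 (SE 0.74, 95% interval -3.81 to 0.01, limma adjusted p = 0.882). The most frequent bin of low FPKM values gave a rough read unit for each library. With the longest annotated Mog transcript, the KO 2 value stood for about 50.2 reads, against about 369 in KO 1, 1097 in WT 1 and 574 in WT 2. This estimate is approximate because the transcript lengths behind the FPKM are not given. The read unit is also weakly determined, since that bin held only 4.28% to 5.06% of the low values.

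Cnp, the enzyme of the cytoplasmic channels, was the highest of the 9 genes in every library. It was at 308.8 and 150.7 FPKM in KO libraries, against 440.1 and 261.1 FPKM in WT libraries. KO 1 exceeded WT 2, so the groups overlapped, and the Cnp difference was -0.65 (SE 0.42, 95% interval -1.73 to 0.43, limma adjusted p = 0.925). Cldn11, the claudin of the sheath's tight junctions, was at 11.9 and 3.31 FPKM in KO libraries, against 15.9 and 11.2 FPKM in WT libraries. Its groups overlapped in the same way, KO 1 being at 107% of WT 2, and its difference was -0.94 (SE 0.59, 95% interval -2.46 to 0.58, limma adjusted p = 0.922). Cnp shares genomic sequence with Dnajc7, a chaperone gene on the opposite strand, and the strand setting of the quantification is not given. Dnajc7 was at 32.6 and 24.9 FPKM in KO libraries and at 36.0 and 29.2 FPKM in WT libraries, well below Cnp.

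The remaining 3 genes encode proteins of maturing oligodendrocytes and were near or at 0. Opalin, a sialylated transmembrane protein of oligodendrocytes, was listed at 0 in both KO libraries, against 1.87 and 3.69 FPKM in WT libraries. A listed 0 can be a failed estimate in this table, so no fold change is given. Of 1943 genes with both WT libraries between 1 and 4 FPKM, 11 (0.566%) had a listed 0 in both KO libraries, and of 2170 genes with both KO libraries in that range, 17 (0.783%) had a listed 0 in both WT libraries. Ermn, which encodes an actin-binding protein related to the ERM family (ezrin, radixin and moesin), was at 0 and 1.78 FPKM in KO libraries and at 0 and 1.88 FPKM in WT libraries. Its values split by library number and not by genotype, and its log2 difference was -0.02 (SE 0.76, 95% interval -1.99 to 1.94, limma adjusted p = 0.998). Of 1463 genes with both libraries numbered 2 between 1 and 3 FPKM, 17 (1.16%) were likewise listed at 0 in both libraries numbered 1. Mal, a proteolipid that sorts membrane rafts, was listed at 0 in all 4 libraries, which does not show that it was not expressed.

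The order of levels was alike in both genotypes. By mean FPKM it ran Cnp, Mbp, Mag, Cldn11, Mobp, Mog, Ermn in KO and Cnp, Mbp, Mag, Cldn11, Mog, Mobp, Opalin, Ermn in WT. The means of Cnp were 229.7 ± 111.9 FPKM in KO and 350.6 ± 126.6 FPKM in WT (SD, n = 2 each), and those of Mbp 47.3 ± 25.003 FPKM in KO and 88.5 ± 20.5 FPKM in WT. In KO, Mag (10.7 ± 10.2 FPKM), Cldn11 (7.61 ± 6.08), Mobp (3.63 ± 1.94) and Mog (3.09 ± 3.30) overlapped with their neighbours in that order. In WT, Cldn11 (13.5 ± 3.37 FPKM), Mog (12.4 ± 6.55) and Mobp (10.7 ± 2.68) likewise overlapped, whereas both Mag values lay above both Cldn11 values and both Mobp values above both Opalin values. Among the 6 genes above 0 in every library, the place of Mog varied most, being the fifth of the 9 in KO 1, the seventh in KO 2, the fourth in WT 1 and the sixth in WT 2. The 9 genes summed to 414.0 and 191.9 FPKM in KO libraries, which was 0.133% and 0.0598% of all FPKM, and to 622.5 and 387.7 FPKM in WT libraries, which was 0.185% and 0.114%.

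**Figure D2:**
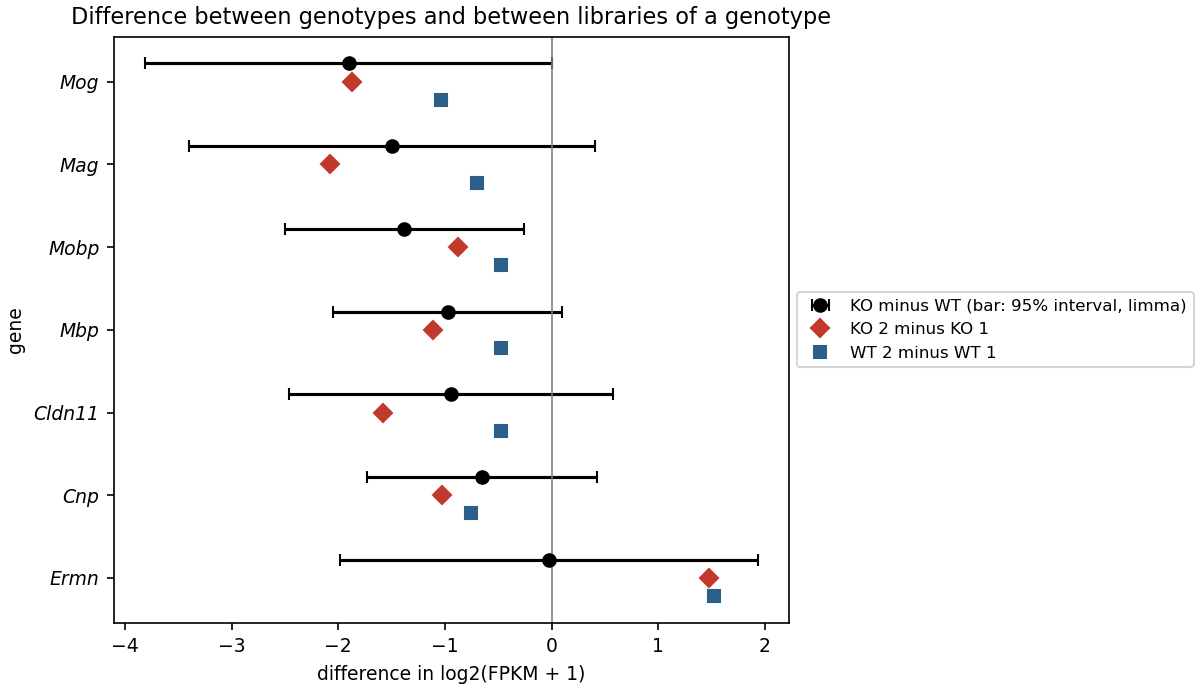
Differences on the log2(FPKM + 1) scale for 7 of the 8 myelin genes tested (Opalin, listed at 0 in KO, is left out): KO over WT with its 95% interval in black, beside the differences between the libraries numbered 2 and 1 within KO and within WT. For Mag the KO libraries differed from each other by -2.08, and the genotypes by -1.495.

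Levels of these genes also went with the library number. For 6 of the 9 genes the library numbered 2 was below the library numbered 1 in both genotypes, against 26.4% of tested genes. KO 2 was at 45.6% of KO 1 for Mbp, 45.2% for Mobp, 48.8% for Cnp, 27.8% for Cldn11, 19.4% for Mag and 14.0% for Mog. WT 2 was at 71.9% of WT 1 for Mbp, 69.8% for Mobp, 59.3% for Cnp, 70.1% for Cldn11, 60.2% for Mag and 45.6% for Mog. As a ratio, Mog differed most of these 6 genes between the libraries of each genotype. The gap between the KO libraries on the log2(FPKM + 1) scale exceeded the genotype difference for 4 of these 6 genes (Mbp, Mag, Cnp and Cldn11), and was smaller for Mobp and Mog. Leaving out KO 1 gave a median log2 difference over the 9 genes of -1.73, leaving out KO 2 gave -0.46, and all libraries gave -0.97. This median counts Mal as 0, and over the 8 tested genes it was -1.18, or -0.97 over the 7 without Opalin.

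Set against Cnp in the same library, several genes were still lower in KO. This ratio was added after the values had been seen, and Cnp was itself lower on average in KO. Mobp stood at 1.62% and 1.499% of Cnp in KO libraries, against 2.85% and 3.36% in WT libraries. Its KO libraries were thus close to each other on this measure and apart from WT. Mbp stood at 21.0% and 19.7% of Cnp in KO libraries, against 23.4% and 28.4% in WT libraries, with no overlap. Mog stood at 1.76% and 0.503% in KO libraries, against 3.87% and 2.97% in WT libraries, and Mag at 5.78% and 2.30%, against 7.27% and 7.38%. Cldn11 overlapped, at 3.86% and 2.20% in KO libraries and 3.62% and 4.27% in WT libraries. In all, 5 of the other 8 genes had both KO ratios below both WT ratios, namely Mbp, Mobp, Mag, Mog and Opalin. For Opalin this was fixed in advance, since its KO values were 0 and it entered the test only through WT. The 8 also include Mal, which was not tested. Of the 10753 other tested genes 1.88% had both KO ratios below both WT ratios. A gene at the same level in every library would tend to have higher ratios in KO because the Cnp level was lower there.

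**Figure D3:**
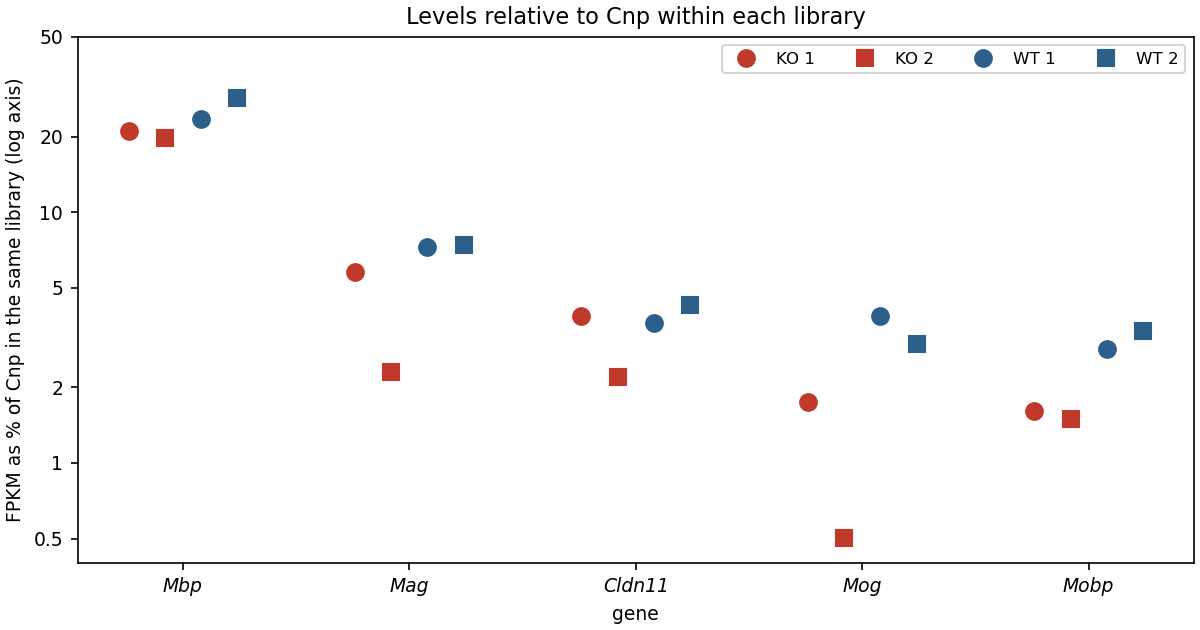
Level of Mbp, Mobp, Mag, Mog and Cldn11 as a percent of Cnp in the same library, on a log axis, with KO to the left of WT. Both KO points lie below both WT points for Mbp, Mobp, Mag and Mog, and the Cldn11 points overlap (3.86% in KO 1, against 3.62% in WT 1).

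The labelled cell type was checked against marker genes. Of 12 oligodendrocyte lineage genes, 11 reached 1 FPKM in every library, and 1 was below that level in all 4. Levels differed widely among these genes. Sox10, a factor of the whole lineage, was at 333.1 and 242.4 FPKM in KO libraries and at 305.8 and 266.5 FPKM in WT libraries. Markers of some other cells went with the library number. Microglial markers summed to 58.3 and 174.5 FPKM in KO libraries, against 66.9 and 157.6 FPKM in WT libraries, and all 10 tested overlapped between the genotypes. Of the 12 microglial genes, 6 and 10 reached 1 FPKM in KO libraries, and 5 and 10 in WT libraries. Endothelial and mural markers summed to 11.6 and 82.8 FPKM in KO libraries, against 3.30 and 92.6 FPKM in WT libraries. Of their 18 genes, 8 and 2 were at 0 in KO libraries, and 13 and 2 in WT libraries. Pecam1, a defining endothelial gene, was at or below 0.002 FPKM in all 4 libraries, but others were not. Cldn5, the claudin of brain endothelium, was at 0.035 and 26.3 FPKM in KO libraries and at 0 and 26.8 FPKM in WT libraries. Vtn, a marker of pericytes, was at 7.34 and 28.5 FPKM in KO libraries and at 0 and 35.3 FPKM in WT libraries. Thus KO 2 and WT 2, the lower libraries of each genotype for 6 of the myelin genes, had the higher sums for both of these cell types, and the part of those cells in the result was not tested. Astrocyte markers summed to 327.2 and 421.7 FPKM in KO libraries and to 356.7 and 365.5 FPKM in WT libraries, with 6 and 10 of 12 genes reaching 1 FPKM in KO and 8 and 8 in WT. S100b made up much of that sum, at 145.2 and 73.9 FPKM in KO libraries and 228.2 and 108.4 FPKM in WT libraries. It was lower in the libraries numbered 2. The mean log2(FPKM + 1) of the astrocyte list was higher in both libraries numbered 2, at 2.34 and 3.40 in KO and 2.39 and 3.21 in WT. Neuron markers summed to 40.5 and 67.3 FPKM in KO libraries and to 26.7 and 49.1 FPKM in WT libraries, with 7 and 7 of 16 genes reaching 1 FPKM in KO and 5 and 4 in WT. Rbfox3, a defining gene of mature neurons, was at or below 0.084 FPKM. Of the neuron markers 6 were tested. In KO 3 of these were higher without overlap, against 16.6% of all tested genes, and 0 were lower, against 18.3%. Their median log2 difference was 0.58, which was 0.02 with no filter on low values. Stmn2, a microtubule regulator of growing neurons, was at 3.67 and 6.57 FPKM in KO libraries and at 1.35 and 0.503 FPKM in WT libraries. Tubb3, a neuronal tubulin, was at 9.55 and 24.6 FPKM in KO libraries and at 10.4 and 24.2 FPKM in WT libraries. Among the neuron markers, Dlx2, a factor of interneuron precursors, was at 3.65 and 4.84 FPKM in KO libraries and at 0 and 0.055 FPKM in WT libraries. Markers of peripheral myelin summed to between 62.7 and 69.5 FPKM in every library, mostly from Sox2 and Pmp22. The part of astrocytes and neurons was not tested either.

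**Figure D4:**
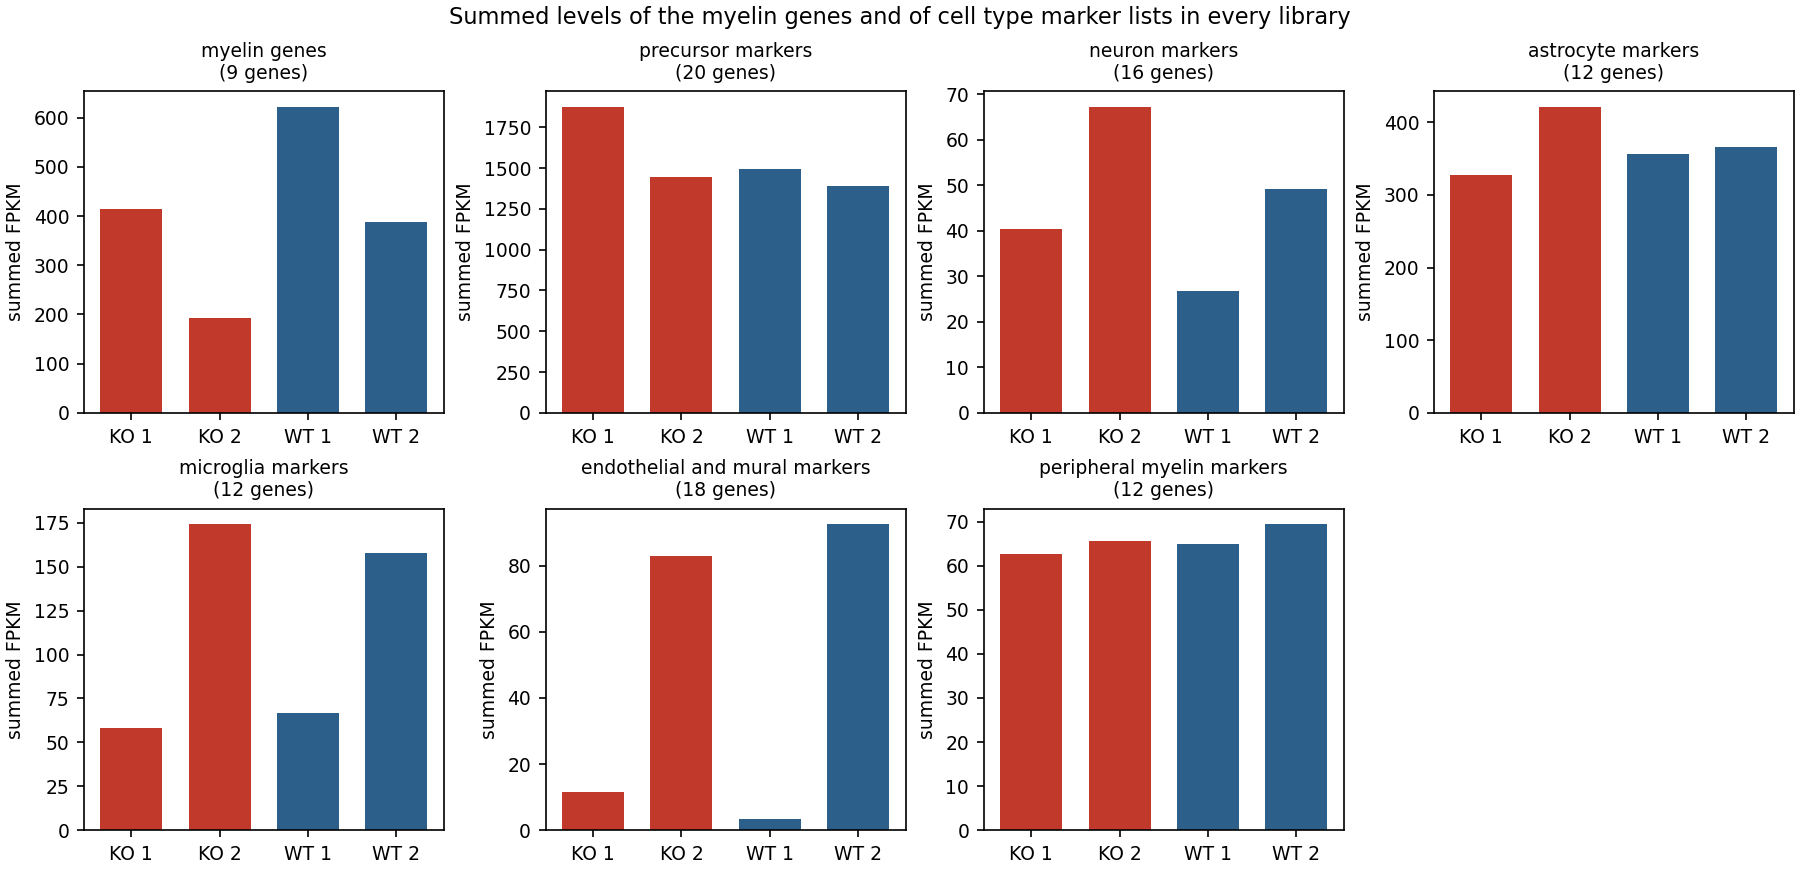
Summed FPKM of the 9 myelin genes and of marker lists of other cells in each library, on separate axes that start at 0, with KO to the left of WT. The microglial and the endothelial and mural sums are higher in both libraries numbered 2, and the myelin sum is lower there.

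A wider list of sheath genes had a median closer to 0. Of 40 listed sheath genes outside the 9, 32 were tested and 0 were called at an adjusted p below 0.05. In KO 6 (18.8%) were lower without overlap, against 18.3% of all tested genes, and 2 (6.25%) were higher, against 16.6%. The median log2 difference was -0.24, against 0.00 over all tested genes. Without WT replicate 1 that median was 0.06. Ppp1r14a, an inhibitor of myosin phosphatase, was at 2.51 and 3.71 FPKM in KO libraries, against 9.33 and 7.67 FPKM in WT libraries. Trf, which carries iron into maturing oligodendrocytes, was at 9.96 and 15.96 FPKM in KO libraries, against 25.8 and 23.3 FPKM in WT libraries. Tppp3, a tubulin-binding protein, was at 0.011 and 0.464 FPKM in KO libraries, against 1.76 and 3.31 FPKM in WT libraries. Ppp1r14a, Trf and Tppp3 were lower in KO 1 than in KO 2, unlike the 6 myelin genes above. Cd9, a tetraspanin of the membrane, overlapped at 1564 and 1046 FPKM in KO libraries and 1945 and 1182 FPKM in WT libraries.

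Protein families related to the 9 genes had medians near 0 with all 4 libraries. Of all tested genes 18.3% were lower and 16.6% higher in KO without overlap. Leaving out 1 library moved these medians to between -0.33 (galactolipid synthesis without KO 1) and 0.37 (the same list without KO 2). The 10 genes of galactolipid synthesis, whose products include the sorting antigen GalC, had a median log2 difference of 0.03, with 1 lower and 1 higher in KO without overlap. Fa2h, which hydroxylates the fatty acids of myelin lipids, was at 115.8 and 54.8 FPKM in KO libraries and at 168.0 and 78.5 FPKM in WT libraries. In the MARVEL family, to which Mal belongs, 6 genes were tested, 1 was lower and 0 were higher, and the median was 0.12. Its lower gene, Cmtm5, was at 23.5 and 22.9 FPKM in KO libraries, against 36.3 and 30.1 FPKM in WT libraries. Pllp, plasmolipin, a relative of Mal in myelin, overlapped at 238.0 and 160.1 FPKM in KO libraries and 355.9 and 199.5 FPKM in WT libraries. Of 9 tested tight junction genes, 1 was lower and 1 was higher (median 0.01), and Tspan3, a tetraspanin that associates with Cldn11, overlapped at 682.9 and 647.8 FPKM in KO libraries and 702.7 and 659.5 FPKM in WT libraries. Of 7 tested genes of the ERM family and cortical actin, 1 was lower and 1 was higher (median -0.05). Of 7 tested receptors and partners of Mag and of the sheath protein Omg, 0 were lower and 2 were higher, and the median was 0.08. Rtn4r, the Nogo receptor that binds Mag, was at 1.18 and 3.55 FPKM in KO libraries, against 0.043 and 0.292 FPKM in WT libraries. Of 12 tested genes that carry or process myelin mRNAs, 2 were lower and 1 was higher (median -0.05). Fyn, a kinase that releases Mbp mRNA for local translation, overlapped at 83.8 and 47.2 FPKM in KO libraries and 119.3 and 63.5 FPKM in WT libraries.

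**Figure D5:**
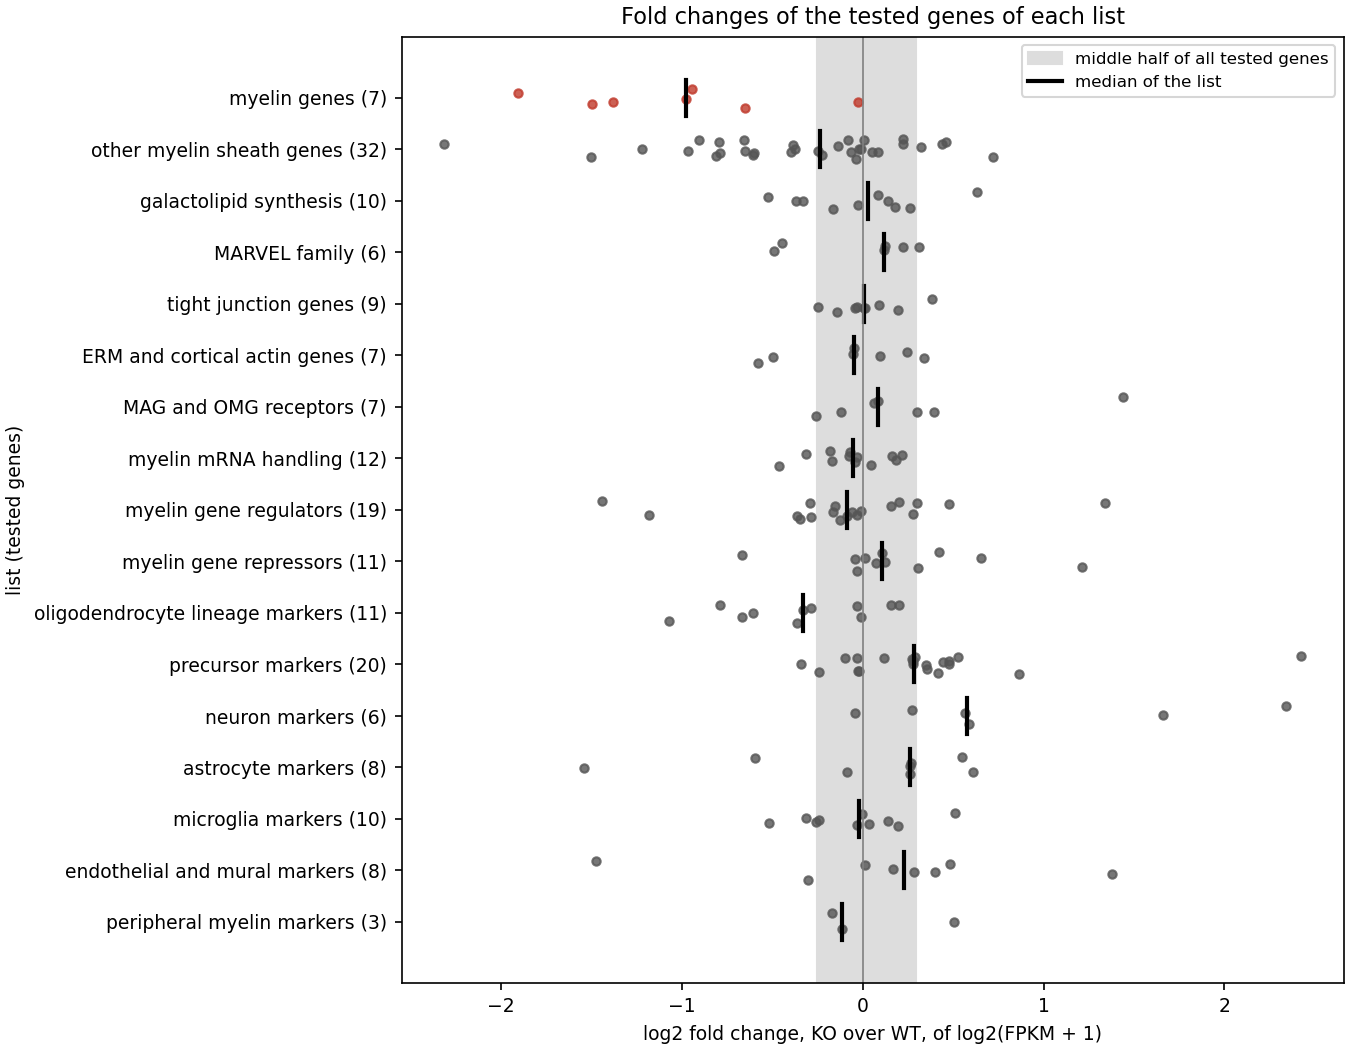
Log2 difference, KO over WT, of log2(FPKM + 1) for each tested gene of the myelin genes (7, without Opalin) and of 16 other lists; each point is a gene, the bars are list medians and the grey band holds the middle 50% of all tested genes (-0.25 to 0.29). The myelin genes run down to -1.90, and the medians of the other lists lie between -0.33 and 0.58.

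The factors that act on myelin genes were measured in the same libraries. Of 19 tested myelin gene regulators, 3 (15.8%, against 18.3% of all tested genes) were lower and 4 (21.1%, against 16.6%) were higher in KO without overlap, and the median log2 difference was -0.09. The 19 included Zfp488 itself, which carries the knock-in allele and was 1 of the 3 lower genes. Sox10 differed by -0.01 (SE 0.19). Myrf was low in every library, at 1.78 and 0.323 FPKM in KO libraries and 1.22 and 0.727 FPKM in WT libraries. Olig1 and Olig2, which specify the lineage, were both higher in KO without overlap. Olig2 was at 454.1 and 453.0 FPKM in KO libraries, against 390.2 and 399.5 FPKM in WT libraries. Nfe2l3, a leucine-zipper factor expressed in new oligodendrocytes, was at 2.93 and 1.82 FPKM in KO libraries, against 10.3 and 6.23 FPKM in WT libraries. Of 11 tested repressors of myelin genes, 0 were lower and 2 were higher (18.2%, against 16.6% of all tested genes), the Notch effectors Hey1 and Hey2. Hey1 was at 19.1 and 19.5 FPKM in KO libraries, against 10.4 and 13.7 FPKM in WT libraries.

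Markers of oligodendrocyte precursors and of newly formed oligodendrocytes bracket the stage of the sorted cells. Of 20 precursor markers 8 were higher and 0 were lower in KO without overlap, against 16.6% of all tested genes higher and 18.3% lower. In limma 5 of them were higher at an unadjusted p under 0.05, against 2.81% of all tested genes, and 0 had an adjusted p below 0.05. The list's median log2 difference was 0.28. The summed FPKM of the list overlapped between the genotypes, at 1876 and 1446 in KO libraries and 1495 and 1388 in WT libraries. Pdgfra, the receptor that keeps precursors dividing, was at 40.2 and 42.5 FPKM in KO libraries, against 18.5 and 26.8 FPKM in WT libraries, a difference of 0.86 (SE 0.26, limma adjusted p = 0.859). Ednrb, an endothelin receptor of precursors, was at 116.9 and 100.5 FPKM in KO libraries, against 77.2 and 77.8 FPKM in WT libraries. Susd5 was at 27.3 and 13.8 FPKM in KO libraries, against 5.24 and 1.34 FPKM in WT libraries. Of 11 tested markers of the oligodendrocyte lineage, 1 was lower, 2 were higher and 8 overlapped, with a median of -0.33, which was 0.06 without WT 1. The lower one, Enpp6, a choline phosphodiesterase of newly formed oligodendrocytes, was at 32.7 and 12.4 FPKM in KO libraries, against 51.1 and 37.4 FPKM in WT libraries. Whether the difference in precursor markers bears on the myelin genes was not tested.

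The genes whose pattern over the 4 libraries was most like the mean of the tested myelin genes were Nudt22, Rcn3, 2510002D24Rik, Cables2 and LOC102634812. Likeness was the Euclidean distance between log2(FPKM + 1) profiles centred on each gene's mean, over 5952 other genes with a mean of at least 5 FPKM. The distances of these genes were 0.19 to 0.29, against a median of 1.38. The myelin mean was over all 8 tested genes and so included Opalin and Ermn. Both were higher in WT 2 than in WT 1, unlike Mbp, Mobp, Mag, Mog, Cnp and Cldn11. The mean is therefore not the pattern of those genes alone. Rcn3, a calcium-binding protein of the endoplasmic reticulum, was at 21.0 and 9.71 FPKM in KO libraries, against 36.8 and 26.5 FPKM in WT libraries. Nudt22, a hydrolase, was at 12.8 and 7.21 FPKM in KO libraries, against 21.2 and 20.2 FPKM in WT libraries.

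Most genes next to the 9 on the chromosome were too low to test. Of 18 nearest neighbours 6 were tested, of which 1 was lower in KO without overlap, 2 were higher and 3 overlapped. Dnajc7, which shares sequence with Cnp, was not among the 18. The neighbour counted after Cnp was Nkiras2, 27306 bases away and 1 of the 2 higher genes. Over all tested genes the shares without overlap were 18.3% lower and 16.6% higher in KO. Zfp57 lies 11 bases from Mog in the RefSeq annotation of GRCm38, and was at 0.672 and 0.895 FPKM in KO libraries and at 0.657 and 0.72 FPKM in WT libraries. Gabbr1, a GABA receptor subunit on the other side of Mog, was at 7.79 and 3.57 FPKM in KO libraries and at 6.04 and 3.16 FPKM in WT libraries, which overlapped. Rpsa, a ribosomal protein gene beside Mobp, was at 148.5 and 146.0 FPKM in KO libraries and at 185.7 and 135.2 FPKM in WT libraries, which also overlapped. Mrps5, beside Mal, was the neighbour lower in KO, at 45.4 and 49.8 FPKM in KO libraries and 56.1 and 61.9 FPKM in WT libraries.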

How the data were processed

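RNA from sorted cells was sequenced in 4 libraries, 2 per genotype. The authors deposited FPKM, 1 column per library and 35869 rows. Per the submitters' processing notes, TopHat (no version given) and the mm10 build were used. Not given in the sources used here are the FPKM program, its annotation, its strand setting and the total reads. FPKM sums were 311846 and 320581 in KO libraries and 336530 and 341145 in WT libraries. Both KO sums thus lay below both WT sums. The most frequent bin of low values gave about 37.8 to 43.4 reads per FPKM on 1 kb of transcript. That bin held 4.28% to 5.06% of the low values, so the figure is approximate, and it was not used to rebuild counts.

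Values were analysed as log2(FPKM + 1). All 10754 genes with at least 1 FPKM in at least 2 libraries entered a limma 3.58.1 model run under R 4.3.3 (genotype as the sole term, mean-variance trend, Benjamini-Hochberg adjustment over all genes, threshold 0.05, two-sided). SE is that of the log2 difference, and intervals are 95%. From each of 16 lists beside the 9 genes, up to 4 non-overlapping genes with the smallest unadjusted p were eligible to be named, and 1 overlapping gene with the highest mean. Zfp488, Sox10, Myrf, Pdgfra, the nearest neighbours and the 5 genes most alike in pattern were eligible too. Cldn5, Dnajc7, Pecam1 and Rbfox3 fall outside this rule and were picked once their values were known. Some genes of the lists are counted but not reported by name here. The 9 genes and the lists were chosen with earlier results of these data known. Alternatives were other pseudocounts, filters and scalings, no trend, a replicate block, and leaving out each library.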

Additional observations from a re-analysis of the deposited data

How the results depend on the processing

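No gene passed an adjusted p of 0.05 in any of 13 alternatives (other pseudocounts, filters, scalings, no trend, a replicate block, each library left out). The log2 differences of Mbp, Mobp, Mag, Mog, Cnp and Cldn11 were negative in all 13. The median over the 9 genes was -0.97 and ranged from -1.73 (without KO replicate 1) to -0.46 (without KO replicate 2). Ermn changed sign, to 0.0043 with libraries rescaled to a common FPKM total and to 0.71 without KO replicate 1, and its leave-one-out values ran from -0.79 to 0.71; the cause was not tested. Opalin gave no value without either WT library or at a mean of at least 5 FPKM, and Ermn gave none at that mean or without either library numbered 2. The replicate numbers are shared between the genotypes, but the labels do not say that they pair libraries. Over 10754 genes the differences between libraries 2 and 1 in KO and in WT had r = 0.289, with only 2 pairs. With the replicate block, 548 genes were lower and 477 higher at an unadjusted p under 0.05, against 306 and 302 without it, the median over the 9 genes was -0.97, and the smallest adjusted p was 0.413. Those counts were 188 and 402 after the common-total rescaling, which moved the median of all genes by 0.08. They were 515 and 608 with no filter and 205 and 126 at a mean of at least 5 FPKM. They were 162 and 377 without WT replicate 1, 197 and 489 without WT replicate 2, 267 and 105 without KO replicate 1, and 243 and 96 without KO replicate 2. Of the 9 genes, 2 had an unadjusted p under 0.05 with all libraries, 6 with the replicate block, 7 without KO replicate 1, 1 without KO replicate 2, 0 without WT replicate 1 and 2 without WT replicate 2. With 2 libraries a genotype, the 95% intervals of Mbp, Mag, Mog, Cnp, Cldn11 and Ermn included 0.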
